A study of Mus musculus with 18 samples.

Results

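Complement was followed here through 9 genes, named by symbol and read in every library: C1qa, C1qb, C1qc, C1ra, C3, C4b, Cfp, C3ar1 and C5ar1. They are 9 of the 34150 genes in the deposited files, and all 9 were found by their Ensembl identifiers. The study sequenced total RNA depleted of ribosomal RNA from mouse heart tissue, in 3 groups of 6 libraries. Control mice, mice with acute myocardial infarction (MI) and mice of the HXP group, which the series title describes as HXP treatment in the infarction model, were compared to find differing genes and their pathways. The labels do not spell out HXP and give no strain, sex, age, dose, time after infarction, sham operation or region of the heart sampled. They number the libraries of a group without saying that each is a separate animal, so the spread behind every p-value is that of libraries, and may be partly technical.

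Complement is a cascade of plasma and tissue proteins that tags cells and debris for removal. C1q, built from the chains of C1qa, C1qb and C1qc, binds the target and switches on the proteases C1r and C1s, which cut C4 and C2 to form the enzyme that cleaves C3. Properdin, encoded by Cfp, steadies the corresponding enzyme of the alternative pathway, and the small fragments C3a and C5a act on leukocytes through the receptors C3ar1 and C5ar1. In tissues C1q is made mostly by macrophages, while liver is the main source of plasma C3 and C4 and many stromal cells make them locally.

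The 9 genes lie on 5 chromosomes of GRCm38 as annotated in GENCODE M21, and no other gene of the files overlaps any of them. C1qb (ENSMUSG00000036905), C1qc (ENSMUSG00000036896) and C1qa (ENSMUSG00000036887) stand side by side on the minus strand in 18.7 kb, at chr4:136880129-136898803. C1ra (ENSMUSG00000055172) is at chr6:124512405-124523443 on the plus strand, with its paralogs C1rl and C1rb and the protease gene C1s1 as near neighbours, and C3ar1 (ENSMUSG00000040552) is on the same chromosome at chr6:122847138-122856161, minus strand. C3 (ENSMUSG00000024164) at chr17:57203970-57228136 and C4b (ENSMUSG00000073418) at chr17:34728380-34743882 share chromosome 17 and the minus strand. Cfp (ENSMUSG00000001128) is at chrX:20925454-20931555 and C5ar1 (ENSMUSG00000049130) at chr7:16246743-16259540, both on the minus strand.

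Because the members moved together, the 250 bases upstream of their RefSeq transcription starts (GRCm38.p6) were read, and 7 of the 9 genes had an entry. Shown are the windows of a recognition chain and of the central component, each 5′ to 3′ on the gene's strand, C1qb at chr4:136886201-136886450 and C3 at chr17:57228137-57228386, both minus strand. Capitals mark matches to GAGGAA (the PU.1 core) and TTGCNNAA (a C/EBP form), on either strand.
C1qb: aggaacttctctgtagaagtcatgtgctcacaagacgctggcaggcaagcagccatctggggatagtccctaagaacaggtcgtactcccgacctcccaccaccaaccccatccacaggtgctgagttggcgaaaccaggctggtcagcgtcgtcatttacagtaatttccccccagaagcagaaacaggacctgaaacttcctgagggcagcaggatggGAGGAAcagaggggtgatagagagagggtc
C3: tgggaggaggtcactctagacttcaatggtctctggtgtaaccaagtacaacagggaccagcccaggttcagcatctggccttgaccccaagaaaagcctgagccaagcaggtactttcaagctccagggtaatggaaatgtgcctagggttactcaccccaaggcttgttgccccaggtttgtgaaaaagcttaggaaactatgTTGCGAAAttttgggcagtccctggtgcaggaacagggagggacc

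In C1qb the GAGGAA match began 30 bases before the start, and in C3 the TTGCNNAA match began 45 bases before it. GAGGAA also matched in C1qc, while Cfp, C1ra, C3ar1 and C5ar1 held no match, and an IRF form matched in none of the 7. Some windows overlapped an exon of their own gene in GENCODE M21: 216 of the 250 bases in C1ra, 151 in C1qc, 28 in C5ar1 and 4 in C3ar1. The C1ra and C1qc windows were thus mostly transcribed sequence by that annotation. Among 32851 mouse promoters of the same length, GAGGAA was found in 23.25%, TTGCNNAA in 9.564% and the IRF form in 2.977%. The motifs were chosen after the sequences were seen. Of the 4 windows free or nearly free of exon bases, the printed ones are those with a match. A match is a description of the letters only.

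Between 75.7 and 81.1 M reads could be recovered per library, so counting error was small: the fewest reads of any member in any library were 219, for C5ar1 in control 2. Mitochondrially encoded genes took 29.9% to 34.7% of reads in controls, 16.6% to 27.4% in MI and 16.6% to 36.8% in HXP. MI 6 had the highest share in MI. HXP 6 had the highest share of all libraries and the fewest genes at 1 FPKM or more (9888). The share was 31.3% in HXP 4 and 33.4% in HXP 5, against 20.2%, 22.1% and 16.6% in HXP 1, HXP 2 and HXP 3. Cardiomyocyte markers were high in every library (summed level 7180 to 12287 FPKM). Some libraries stood apart: MI 5 carried lung epithelial transcripts (summed marker level 1148 FPKM, where no other MI library exceeded 0.327), and MI 4 carried skeletal muscle transcripts (26.1, where no other MI library exceeded 0.932 and HXP 5 had 3.20). Levels in HXP 5 and HXP 6 fell with the GC content of the gene, and those in MI 3 and MI 5 moved the other way: the fitted GC trend at C1qa was -0.35 and -0.47 on the log2 scale in the HXP pair and 0.21 and 0.22 in the MI pair. MI 1 and MI 2 were the closest pair of libraries but differed well beyond counting noise. Library numbers in the files fell into 3 runs, and 1 run held 10 libraries (3 control, 5 MI and 2 HXP). Results are given below without these libraries and within that run where that changes them.

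In MI hearts all 9 complement genes were higher than in controls, from a log2 fold change of 1.15 for C5ar1 to 3.13 for C4b (limma, Benjamini-Hochberg adjusted p 0.0139 to 0.0279). The background was broad: 40.1% of the 13710 genes tested were also called higher and 3.21% lower, at an adjusted p below 0.05, and 55% had an unadjusted p under 0.05, so a call alone says little about complement. In size the members' median log2 fold change was 1.57, beside 0.27 over all genes. The members and the other lists were chosen with earlier results of these data known, so such contrasts with all genes are descriptions only. In 6 of the 9 genes every MI library lay above every control, against 27.9% of all genes; in Cfp, C3ar1 and C5ar1 a single library, MI 6, fell back among the controls. No member passed the filter on low values through MI alone, since the lowest control mean was 1.45 FPKM, above the minimum mean of 0.5.

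**Figure D1:**
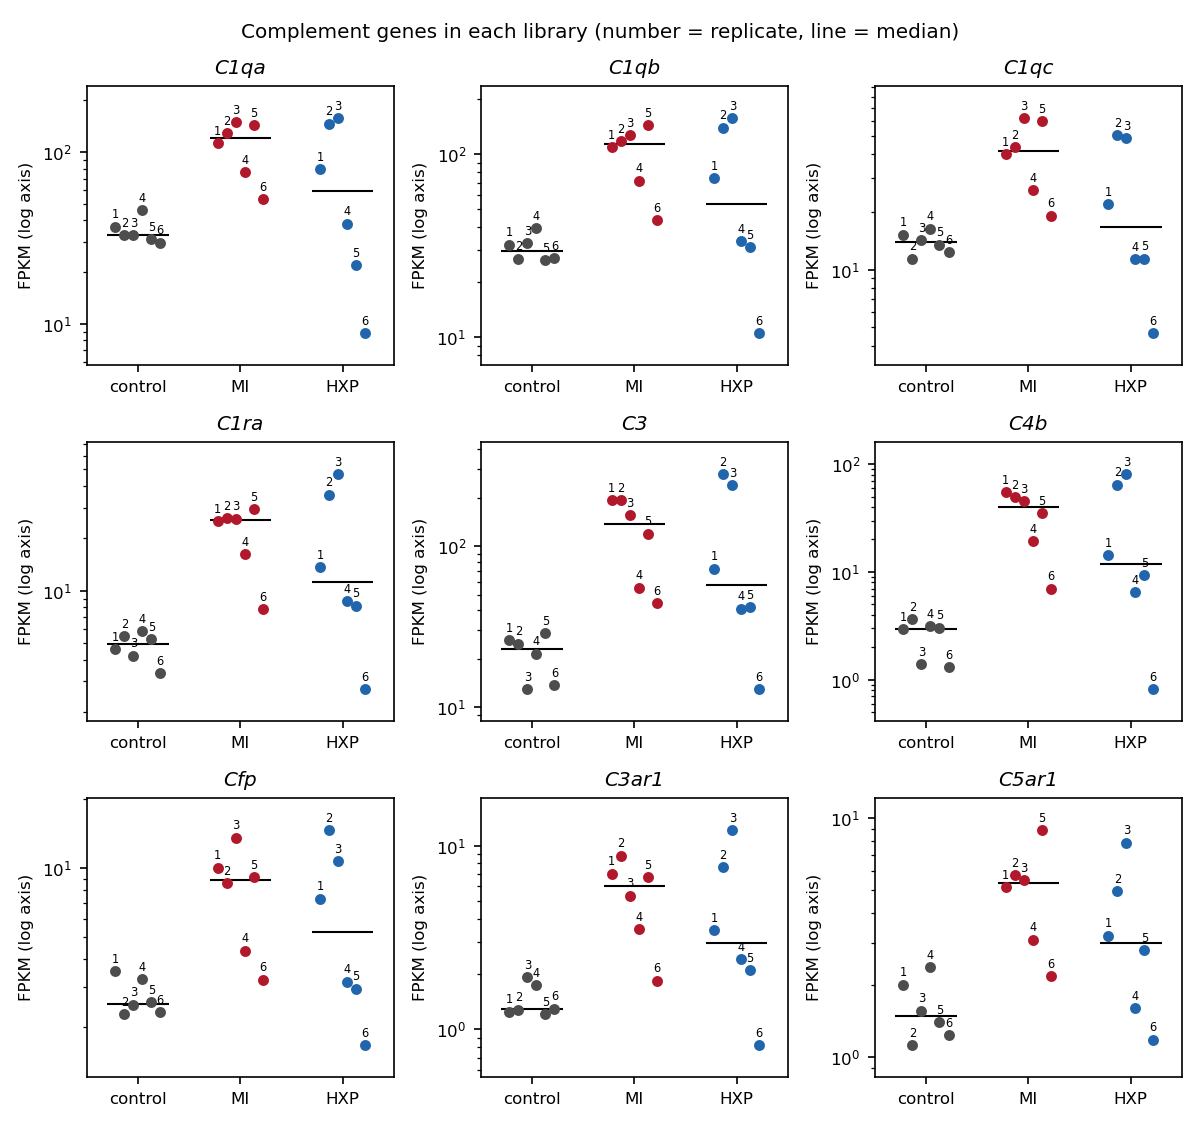
Level of each complement gene in FPKM (log axis) in the 18 libraries, grouped as control, MI and HXP; each point is a library marked with its replicate number and each line is a group median. Controls are tightly grouped, MI 6 is the lowest MI library for all 9 genes, and HXP runs from HXP 2 and HXP 3, above all controls, down to HXP 6, below all controls in 8 of 9 genes.

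The C1q chains, which form the recognition part of C1, were, with C3, the most abundant of the 9 transcripts in control hearts on the length-corrected FPKM scale. C1qa had a median of 32.9 FPKM in controls (29.7 to 45.9), 121 in MI (53.2 to 149) and 59.0 in HXP (8.83 to 158). C1qb was almost level with it, at 29.6 FPKM in controls (26.4 to 39.6), 114 in MI (43.7 to 145) and 53.8 in HXP (10.5 to 157). C1qc lay lower, at 13.9 FPKM in controls (11.4 to 16.4), 41.9 in MI (19.1 to 61.8) and 16.7 in HXP (4.65 to 50.3). For all 3 chains the MI and control libraries did not overlap, while HXP 1, HXP 2 and HXP 3 lay above every control and HXP 4, HXP 5 and HXP 6 did not. The log2 fold change of MI over control was 1.57 for C1qa (SE 0.53, limma adjusted p = 0.0279), 1.61 for C1qb (SE 0.49, adjusted p = 0.0211) and 1.42 for C1qc (SE 0.44, adjusted p = 0.0220). In these bulk samples more C1q-producing cells and more C1q RNA per cell cannot be told apart.

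C1ra, the protease that C1q activates, was at 4.58, 5.46, 4.22, 5.85, 5.25 and 3.34 FPKM in control 1 to control 6. It was at 25.1, 26.1, 26.0, 16.2, 29.5 and 7.84 FPKM in MI 1 to MI 6, and at 13.7, 35.8, 46.9, 8.68, 8.19 and 2.70 in HXP 1 to HXP 6. All MI libraries and all HXP libraries but HXP 6 exceeded every control. The log2 fold change in MI was 1.88 (SE 0.48, limma adjusted p = 0.0146). Reads of C1ra and its near copy C1rb may have been divided differently by the authors' counting. C1rb itself had a control median of 0.44 FPKM and reached at most 4.46, in HXP 2.

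C3, the component on which all pathways converge, had 26.1, 24.8, 13.0, 21.5, 28.9 and 13.8 FPKM in the 6 controls. In MI it reached 193, 193, 156, 55.4, 120 and 44.2 FPKM, which gave it the highest MI median of the 9. In HXP it was 72.6, 280.3, 240.4, 40.9, 41.9 and 12.9 FPKM, so that HXP 2 held the highest and HXP 6 the lowest value of the 18 libraries. The log2 fold change in MI was 2.37 (SE 0.60, limma adjusted p = 0.0146).

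C4b, which supplies the second subunit of the classical C3-cleaving enzyme, showed the widest range. Controls held 2.93, 3.62, 1.40, 3.16, 3.03 and 1.31 FPKM, and MI libraries 54.7, 49.2, 45.6, 19.2, 35.3 and 7.02. The HXP libraries held 14.4, 64.4, 80.7, 6.50, 9.29 and 0.82 FPKM, a 98.8-fold span within the group. MI and control did not overlap, and the log2 fold change in MI was 3.13 (SE 0.73, limma adjusted p = 0.0139). Its near copy C4a stayed at or below 0.48 FPKM in every library, although reads that fit both copies may have been assigned to either.

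Control 3 and control 6 stood low among the controls for C3 and C4b together. The same held for C2 (0.05 and 0.07 FPKM, against 0.22 to 0.28 in the other controls) and for Cfb (0.55 and 0.24 against 0.93 to 1.27). The mesothelial marker Upk3b was also lowest there (0.01 and 0.04 FPKM, against 0.30 to 0.87), while the mesothelial marker Wt1 was lowest in control 2 (0.17). The summed level of the 4 mesothelial markers was 0.296 to 2.35 FPKM in controls, 6.72 to 33.0 in MI and 0.463 to 84.9 in HXP. Of these markers 4 of 4 were called higher in MI, beside 40.1% of all genes. The summed neutrophil markers were highest among controls in control 3 and control 6 (20.0 and 12.3 FPKM, against 0.705 to 3.58 in the other controls). The part of either cell type in the C3 and C4b values was not tested.

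Cfp, encoding properdin, had a control median of 2.55 FPKM (2.28 to 3.53), an MI median of 8.86 (3.24 to 13.6) and an HXP median of 5.26 (1.67 to 14.7). Its log2 fold change in MI was 1.18 (SE 0.38, limma adjusted p = 0.0245), with 5 of 6 MI libraries above all controls. The receptor genes were the least abundant members. C3ar1, the receptor for C3a, rose from a median of 1.29 FPKM in controls (1.21 to 1.92) to 6.04 in MI (1.84 to 8.83), a log2 fold change of 1.32 (SE 0.39, adjusted p = 0.0181). C5ar1, the receptor for C5a, rose from 1.48 FPKM (1.12 to 2.37) to 5.32 (2.17 to 8.89), a log2 fold change of 1.15 (SE 0.31, adjusted p = 0.0151). In HXP the medians were 2.94 FPKM for C3ar1 (0.82 to 12.1) and 3.0 for C5ar1 (1.18 to 7.89), and both ranges overlapped those of the other groups. For these low genes the added 1 FPKM of the log scale compresses the fold change.

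**Figure D2:**
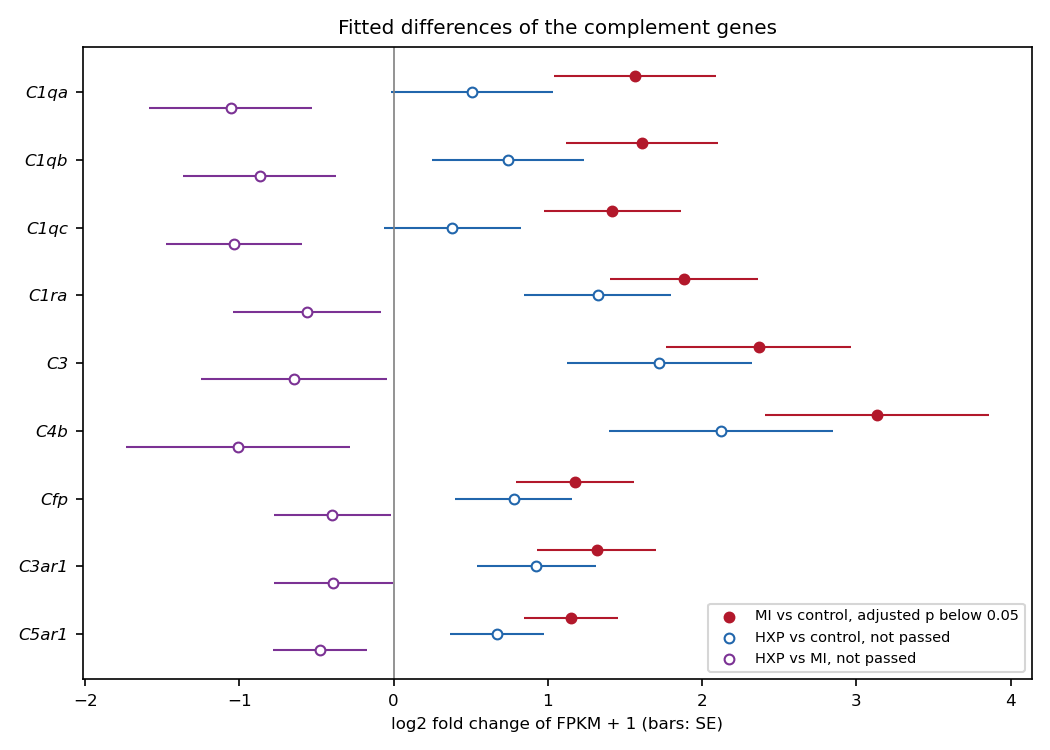
Fitted log2 fold change of FPKM + 1 for the 9 complement genes (points) with its standard error (bars), for MI against control, HXP against control and HXP against MI. All 9 MI against control values lie to the right of 0 and passed the limma test, and none of the HXP values did.

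The MI calls changed with the libraries used, while the sizes stayed close. The main model fitted 1 spread over all 3 groups, HXP included. With only the MI and control libraries in the model all 9 were called (limma adjusted p 0.00026 to 0.0023), with 53.9% of all genes higher. Without HXP 5 and HXP 6 all 9 were called too (limma adjusted p 0.0025 to 0.0076), with 48.7% of all genes higher. Without MI 5, the library with lung transcripts, the members called fell from 9 to 5 (18.4% of all genes), since the 3 C1q genes and Cfp then had adjusted p from 0.0526 to 0.0633, and the 9 log2 fold changes ran from 0.99 to 3.08. Without MI 3, a library with a GC trend, 7 of 9 were called (28.7% of all genes), with limma adjusted p up to 0.0555. Without MI 2, and without control 2, 8 of 9 were called (27.7% and 26.6% of all genes). With no filter on low values 7 of 9 were called (11.4% of all genes), with limma adjusted p up to 0.0617. Without MI 4, and without MI 6, all 9 were called (40.1% and 44.5% of all genes). Without control 3 and control 6 the C1q genes and Cfp were lost again (22.3% of all genes called higher). Without MI 4 and MI 5 no gene of the 13710 was called by limma; all 9 members still had an unadjusted p under 0.05, beside 43.7% of all genes, adjusted p from 0.0555 to 0.0760 and log2 fold changes from 1.07 to 3.21. Within the run of 10 libraries 0 members were called (0.54% of all genes), again with 9 of 9 at an unadjusted p under 0.05 (35.5% of all genes), and the log2 fold changes there ran from 0.93 for C5ar1 to 3.36 for C4b. With the run as a covariate 8 of 9 were called (28.8% of all genes higher). Whether the common scale is right matters here: quantile normalization moved the median of all genes from 0.27 to -0.07 and the calls from 5494 higher and 440 lower to 1810 higher (13.2%) and 2371 lower, and median-ratio scaling gave 2395 higher (17.5%) and 2068 lower, yet 9 of 9 members were called higher under both.

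HXP hearts gave no complement call against MI. All 9 fitted differences of HXP minus MI were negative, from -1.06 for C1qa to -0.39 for C3ar1 on the log2 scale, with a median of -0.64 beside -0.12 over all genes. None passed limma's adjusted test (0 of 9, with 0% of all genes called lower), and 1 of 9, C1qc, had an unadjusted p under 0.05, beside 13.8% of all genes. The adjusted p ran from 0.334 to 0.607. The 95% intervals were wide: -1.97 to -0.11 for C1qc, -2.16 to 0.05 for C1qa, -1.91 to 0.62 for C3 and -2.54 to 0.52 for C4b. They use the spread shared with the controls, which varied far less than HXP, and so may be too narrow. With only the HXP and MI libraries in the model, the limma adjusted p of the members ran from 0.622 to 0.735. In that model 7.88% of all genes had an unadjusted p under 0.05. All 9 intervals reach below -1 and 8 of the 9 include 0, so this comparison shows neither a reduction nor its absence. Without HXP 5 and HXP 6 the differences of C1ra, C3, Cfp and C3ar1 changed sign (0.08, 0.12, 0.09 and 0.09).

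Against controls no member was called in HXP either (limma, 0 of 9, with 0.0948% of all genes called higher), and in none did all HXP libraries lie above all controls (1.13% of all genes). Of the 9, 5 had an unadjusted p under 0.05, beside 33.1% of all genes: C1ra (log2 fold change 1.32, adjusted p = 0.101), C3 (1.72, adjusted p = 0.0982), C4b (2.12, adjusted p = 0.0963), C3ar1 (0.92, adjusted p = 0.122) and C5ar1 (0.67, adjusted p = 0.141). For the C1q chains the differences were 0.51, 0.74 and 0.38 (adjusted p 0.278 to 0.535). The count turned on HXP 6: without it 7 of 9 were called higher (28.1% of all genes), and without HXP 5 and HXP 6 all 9 were (40.9% of all genes). The comparisons share their MI or control libraries, so their values are not independent of each other.

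The HXP libraries differed among themselves far more than those of the other groups. The highest library of a group exceeded the lowest by 1.44 to 2.76 times over the 9 genes in controls, by 2.80 to 7.80 times in MI and by 6.69 to 98.8 times in HXP. HXP 1, HXP 2 and HXP 3 lay above all controls for 9 of 9 genes, HXP 5 for 5, HXP 4 for 4 and HXP 6 for 0. HXP 6 was the lowest library of its group for 9 of 9 genes, as MI 6 was in MI. In their groups MI 6 and HXP 6 were also lowest for the summed macrophage markers (148 and 89.1 FPKM) and the summed fibroblast markers (270 and 80.1). HXP 4 and HXP 5 held 176 and 190 FPKM of macrophage markers, above the highest control (143), although their C1q chains did not exceed every control.

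**Figure D3:**
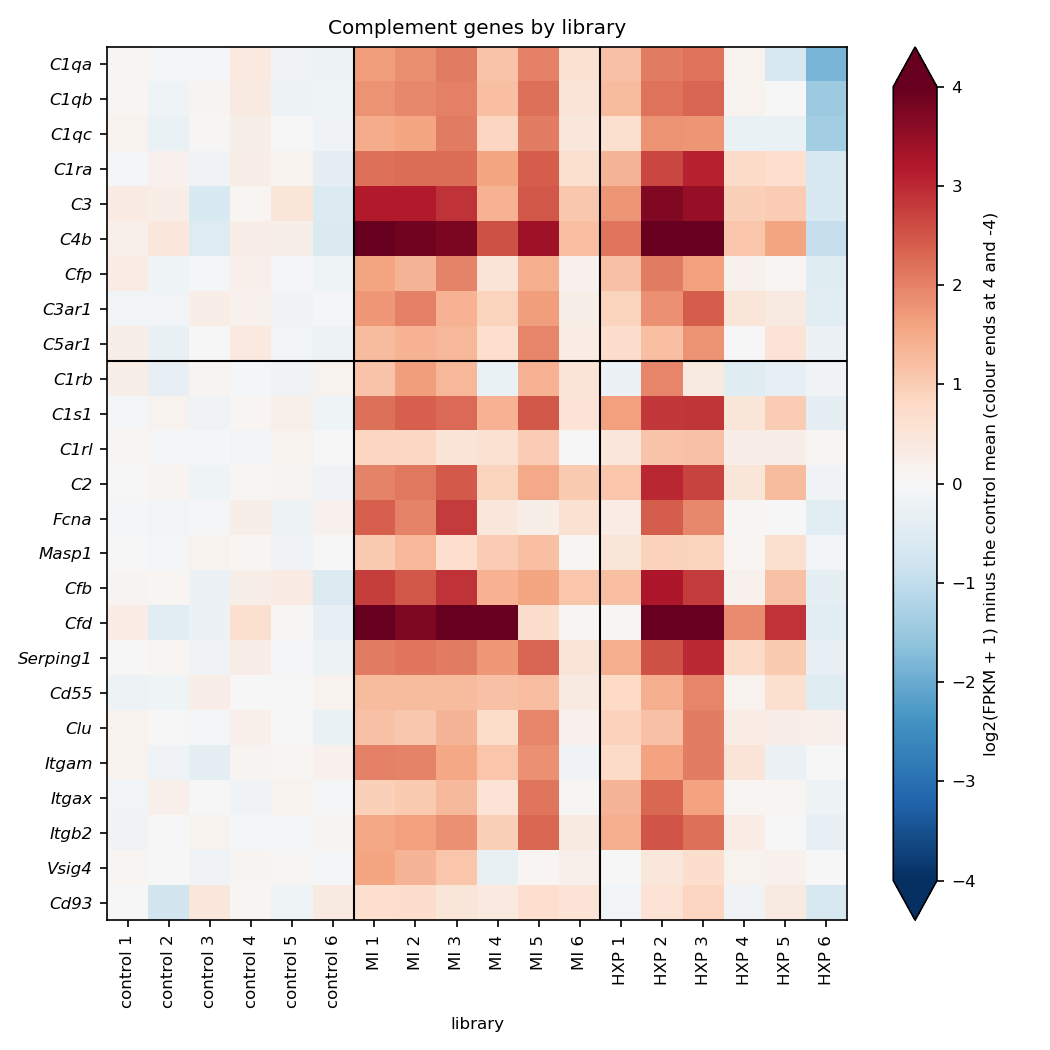
Complement genes (rows) in the 18 libraries (columns), coloured by log2(FPKM + 1) minus the mean of the controls, with the 9 members above the line and 16 other complement genes called in MI below it. The colour ends at 4 and -4, so the highest C4b and Cfd values are off the scale; the dark columns are MI 1 to MI 3, MI 5, HXP 2 and HXP 3.

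Across the 18 libraries the 36 pairs of members correlated with Pearson's r from 0.882 (C1qa with C5ar1) to 0.990 (C1ra with C4b) on the log2(FPKM + 1) scale. After each group's mean was removed, r still ran from 0.825 to 0.987. These points share the 18 libraries, their scale and their tissue makeup, so r is a description. The genes most like the mean of the C1q chains, among 12039 searched outside the lists, were Necap2 and Unc93b1 (r = 0.990 each), Pold4 (0.987), Cotl1 (0.985) and Rcn3 (0.982). For C3 they were Pirb (0.979), Slit3, Trf, Il18 and Adamtsl1 (0.973), and for C4b Trf (0.984), Pirb, Fcgr2b, Osr1 and Aebp1 (0.978). C1ra was closest to Fcgr2b (0.990), Trf, Slc1a5, Cyth4 and Pgghg (0.986), and C5ar1 to Ext1 (0.983), Rcn1, Pdgfc, Gatm and Eif1a (0.979).

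Genes beside the members, taken among the tested genes only, differed in how far they moved. Flanking the C1q cluster, Kdm1a at 277 kb had a log2 fold change in MI of 0.41 and Zbtb40 at 80.9 kb one of 0.23, against 1.42 to 1.61 for the cluster. Beside C3, Gpr108 at 6.50 kb had 0.47 and Tnfsf9 0.27, and beside C4b, Tnxb at 8.57 kb had 0.49. Beside C1ra, C1rl at 1.76 kb had 0.64, while C1s1 at 6.90 kb, the partner protease, had 1.88, the same as C1ra. Near Cfp (1.18) lay Elk1 at 1.84 kb with 0.16 and a gene of larger change, Timp1 at 50.7 kb with 3.82. Near C3ar1 (1.32) lay Foxj2 at 1.77 kb with 0.21 and Clec4a1 at 65.7 kb with 1.13. Near C5ar1 (1.15) lay Inafm1 at 12.5 kb with 0.63 and Dhx34 at 24.7 kb with 0.23.

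Ratios within a library remove its overall level, and 24 such tests were made after values had been seen, each an exact two-sided permutation test over 924 regroupings (smallest possible p 0.00216). C4b relative to C3 was 0.0952 to 0.147 in controls and 0.159 to 0.346 in MI, without overlap (1.17 on the log2 scale, exact permutation p = 0.00216, adjusted over 24 tests 0.0519). In HXP it ran from 0.0630 in HXP 6 to 0.335 in HXP 3, overlapping both groups. No ratio passed the adjusted threshold with all libraries. Without HXP 6, C4b to C3 was higher in HXP than in control by 0.92 (exact permutation, adjusted p = 0.0346) and C1qc to C1qb was lower by a log2 difference of -0.44 (exact permutation, adjusted p = 0.0346). In both ratios HXP 6 was the only HXP library not beyond every control on that side. Leaving it out therefore fixed a full separation, and with fewer libraries there are fewer regroupings than 924. The equal p-values are the smallest the test could give there and add no support.

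Among the chains of C1q, C1qa to C1qb was 1.01 to 1.22 in controls and 0.991 to 1.22 in MI, but 0.706 in HXP 5 and 0.837 in HXP 6. HXP 5 and HXP 6 are the libraries whose levels fell with GC content, and C1qa has the highest GC content of the 9 (59.5%, against 57.4% for C1qb and 43% for C3ar1). After correction of that trend the ratio was 0.775 in HXP 5 and 0.937 in HXP 6. C1qc to C1qb was 0.413 to 0.512 in controls and 0.298 to 0.441 in HXP (-0.37 on the log2 scale, exact permutation p = 0.00866, adjusted 0.104). In MI it was 0.370, 0.368, 0.488, 0.363, 0.411 and 0.437 in MI 1 to MI 6 (-0.16 against control, exact permutation p = 0.0909, adjusted 0.273). MI 1, MI 2, MI 4 and MI 5 thus lay below every control, as did all HXP libraries but HXP 6.

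**Figure D4:**
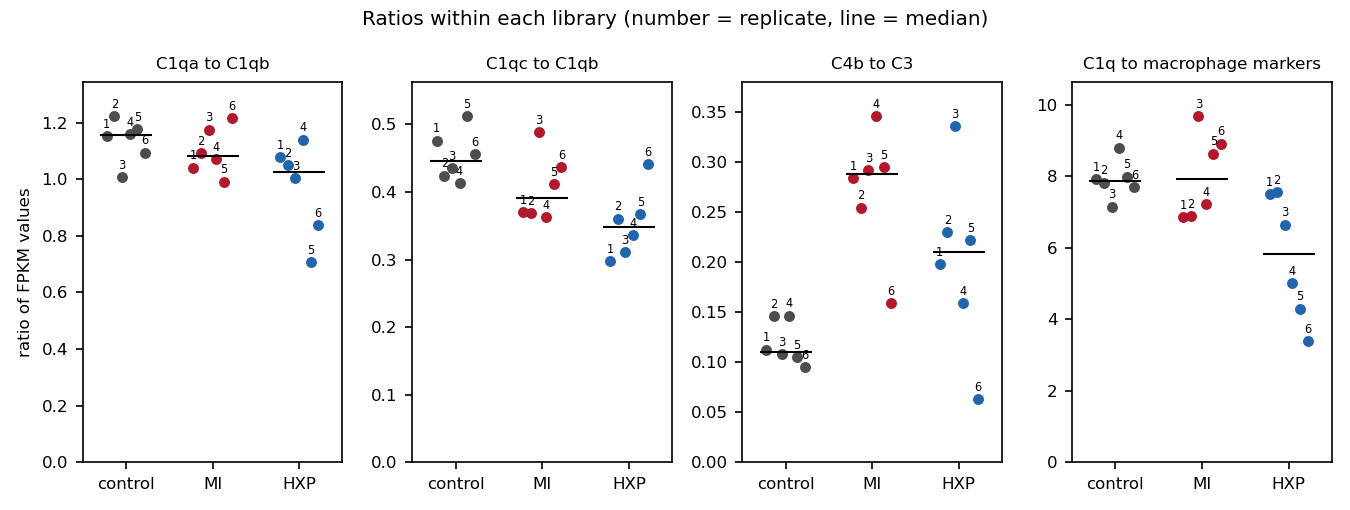
Linear ratios of FPKM values within each library for C1qa to C1qb, C1qc to C1qb, C4b to C3, and the geometric mean of the C1q chains to that of 10 macrophage markers; points are libraries with their replicate number and lines are group medians. C4b to C3 is higher in every MI library than in every control, and C1q to macrophage markers is lowest in HXP 4, HXP 5 and HXP 6.

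Macrophage markers moved with the C1q genes. Of 10 markers 9 were called higher in MI, beside 40.1% of all genes (limma, median log2 fold change 1.16). Examples were Adgre1 (1.49, limma adjusted p = 0.0146) and Ms4a7 (1.60, adjusted p = 0.0143), while Cd163 had 0.19 (adjusted p = 0.513). The summed level of the 10 markers was 106 to 143 FPKM in controls, 148 to 797 in MI and 89.1 to 716 in HXP. No marker was at 0 throughout a group. Lyz2 made up most of that sum: its mean was 91.6 FPKM in controls. It held 688 FPKM in MI 5, the library with lung transcripts and the top of the MI range of the 10 markers. Relative to these markers the C1q chains stood at 7.14 to 8.79 in controls and 6.85 to 9.68 in MI (difference 0.01 on the log2 scale, exact permutation p = 0.911). In HXP 4, HXP 5 and HXP 6 the ratio was 5.01, 4.30 and 3.39, against at least 6.64 in the other 15 libraries, and HXP differed from control by -0.52 (exact permutation p = 0.0130, adjusted 0.104). With the GC correction these were at 5.28, 5.40 and 4.67, and MI 3 and MI 5 went from 9.68 to 8.40 and from 8.63 to 7.44. Fibroblast markers were also called higher in MI, 6 of 6 beside 40.1% of all genes. Their sums were 102 to 142 FPKM in controls, 270.2 to 1684 in MI and 80.1 to 1512 in HXP. Neutrophil markers were called higher in 1 of 4 tested, beside the same 40.1%, with a median log2 fold change of 0.27, that of all genes. The part of these cell types in the complement values was not tested.

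Of 50 other complement genes listed by role, 49 were in the files and 27 passed the filter of a mean of 0.5 FPKM. In MI 17 of the 27 were called higher and 0 lower (limma, beside 40.1% higher over all genes), with a median log2 fold change of 0.95 beside 0.27. In 7 of the 27 all MI libraries lay above all controls, which is no more than the 27.9% of all genes. Against MI, HXP had 0 calls (1 of 27 at an unadjusted p under 0.05, beside 13.8% of all genes), and against control 0 calls (12 of 27 at an unadjusted p under 0.05, beside 33.1%). Without HXP 6, 13 were called higher in HXP than in control (28.1% of all genes). Without MI 4 and MI 5, 0 were called in MI (16 of 27 at an unadjusted p under 0.05, beside 43.7%).

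In the classical and lectin pathways 6 of 7 tested genes were higher in MI, beside 40.1% of all genes (median log2 fold change 0.97). C1s1, the protease partner of C1ra, went from a median of 8.40 to 43.7 FPKM (log2 fold change 1.88, SE 0.47, limma adjusted p = 0.0146), and C2, whose product joins C4 in the C3-cleaving enzyme, from 0.24 to 3.06 FPKM (1.67, SE 0.43, adjusted p = 0.0147). Masp1, a protease of the lectin pathway, had 0.89 (adjusted p = 0.0139), Fcna, a ficolin that recognizes sugars, 1.42 (adjusted p = 0.0329), and C1rl 0.64 (adjusted p = 0.0201). Colec11, a collectin, had 0.09 (adjusted p = 0.640). The mannose-binding lectins Mbl1 and Mbl2 and the ficolin Fcnb were at or below 0.08 FPKM in every library.

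Both genes of the alternative pathway list were higher in MI, beside 40.1% of all genes. Cfb, which provides the protease of the alternative C3-cleaving enzyme, went from a median of 0.95 to 6.76 FPKM with no overlap (2.03, SE 0.51, limma adjusted p = 0.0146). Cfd, which cuts factor B and is made largely by fat cells, had the largest fold change and the largest spread (4.21, SE 1.54, adjusted p = 0.0371). It was at 162.8, 17.8, 300.4, 98.4, 1.29 and 0.47 FPKM in MI 1 to MI 6, at 0.49, 399.5, 327.7, 4.17, 9.51 and 0.06 in HXP 1 to HXP 6, and at or below 1.19 in controls. The 5 adipocyte markers moved with it: their sum was 0.0226 to 0.459 FPKM in controls, 0.205 (MI 6) to 54.0 (MI 3) in MI and 0 (HXP 6) to 115 (HXP 3) in HXP. Their part in the Cfd values was not tested.

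The terminal components gave no call, 0 of 3 tested (limma; 0 of 3 also at an unadjusted p under 0.05). C7 had a log2 fold change of 0.95 (adjusted p = 0.0936) and C8g -0.06 (adjusted p = 0.573). Hc, the gene of C5, was at 11.7 FPKM in MI 5 and at or below 0.05 in the other 17 libraries, and MI 5 is the library with lung epithelial transcripts. C6, C8a, C8b and C9 fell under the filter, with C6 reaching 1.08 FPKM in MI 5.

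Among the regulators 4 of 9 were higher in MI, a share near the 40.1% of all genes, and the median log2 fold change of the 9 was 0.17, below the 0.27 over all genes. Serping1, the inhibitor of C1r and C1s, had 1.81 (SE 0.43, limma adjusted p = 0.0142), and every MI library lay above every control. Cd55, which speeds the decay of C3-cleaving enzymes on host cells, had 1.09 (adjusted p = 0.0158) and Clu, clusterin, 1.08 (adjusted p = 0.0161). Cd59a, which blocks pore assembly, had -0.11 (adjusted p = 0.329) and Cd59b 0.03 (adjusted p = 0.821).

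Of the 6 tested receptor genes 5 were higher in MI, beside 40.1% of all genes (median log2 fold change 0.84). The integrin genes Itgam and Itgb2, which together form complement receptor CR3, had 1.39 (SE 0.38, limma adjusted p = 0.0159) and 1.44 (SE 0.43, adjusted p = 0.0194), and Itgax had 1.01 (adjusted p = 0.0455). Vsig4, a macrophage receptor for C3 fragments, had 0.67 (adjusted p = 0.0467) and Cd93 0.57 (adjusted p = 0.0474). In HXP against control Serping1 (1.41, adjusted p = 0.0881), C2 (1.41, adjusted p = 0.0890) and C1s1 (1.41, adjusted p = 0.0933) were among the 27 genes, none of which passed the limma test.

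**Figure D5:**
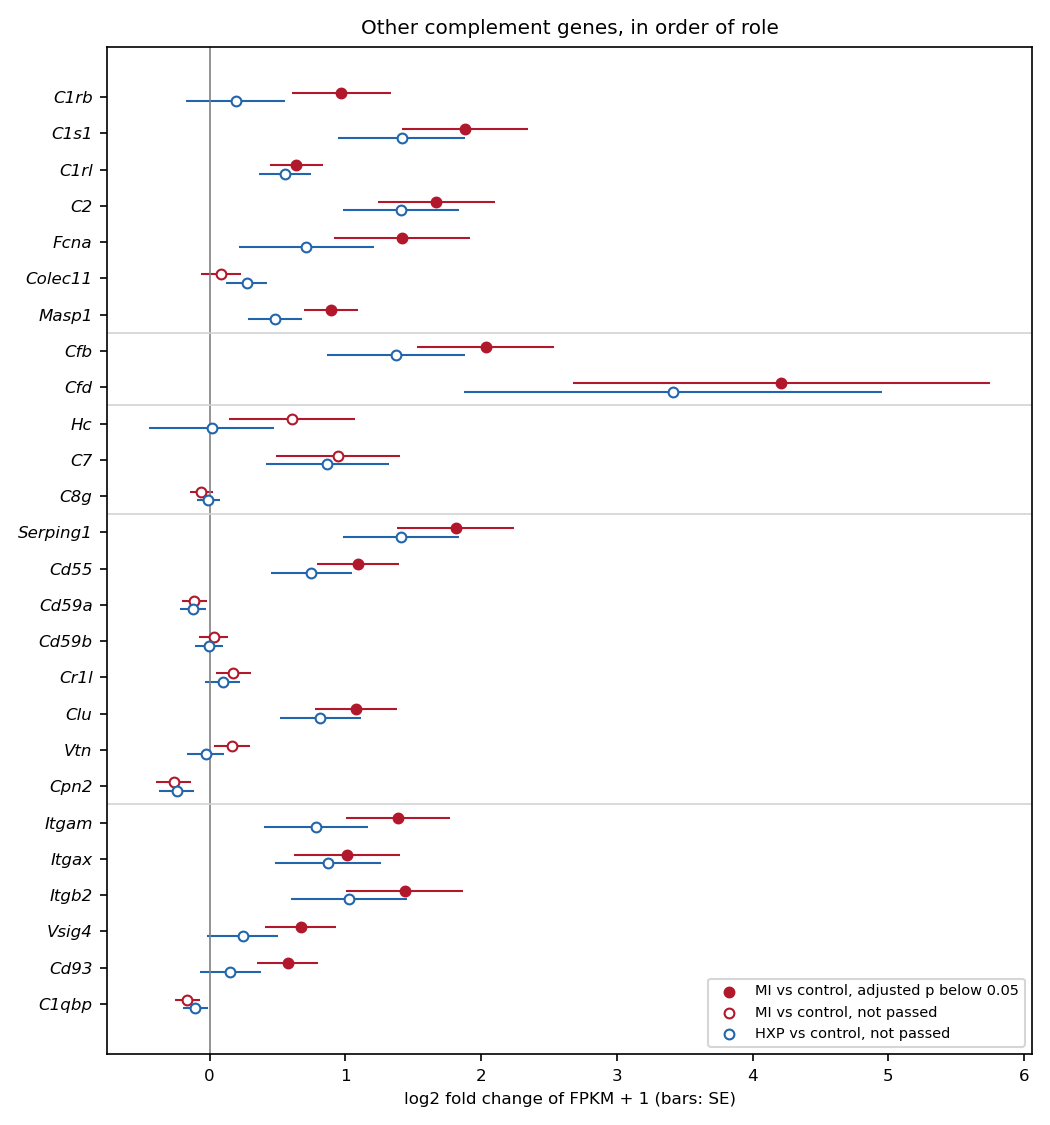
Fitted log2 fold change of FPKM + 1 with its standard error for 26 of the 27 tested complement genes outside the 9, in blocks for classical and lectin pathway, alternative pathway, terminal pathway, regulators and receptors, for MI against control (red) and HXP against control (blue). Filled points passed the limma test: 16 red points did and no blue point did.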

How the data were processed

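Heart RNA was made into 18 libraries with a kit for Illumina sequencing after removal of ribosomal RNA, per the labels' protocols. The authors deposited 1 value per Ensembl gene and library. The unit, FPKM, is not named in the deposited files and was inferred from the values: times exon length, 97.5% to 97.9% of low values fell within 0.1 of a whole read. GRCm38 and limma are named, without a role, per the submitters' processing notes. For the aligner, the counting tool and the strand setting, the sources used here give nothing.

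Identifiers were matched to GENCODE M21 (34097 of 34150). The 13710 genes averaging 0.5 FPKM or more were analysed as log2(FPKM + 1) in 1 model of 3 groups over all 18 libraries with limma 3.58.1 (trend on, two-sided, R 4.3.3). The call threshold was an adjusted p (Benjamini-Hochberg) of 0.05, and the code was tested on simulated data. Fold changes are fitted differences with their SE. Single ratios were tested by exact permutation with scipy 1.17.1.

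The 9 members and all lists were chosen with earlier results of these data known. Named genes were the 9 members, up to 12 other complement genes per comparison with the smallest p, and the 5 genes of highest r for each of 5 patterns. The genes given without a call, those beside the members, C4a, C6, Upk3b and the macrophage marker examples were chosen after their values were seen. Among the other complement genes, 1 is included in the counts but not reported here by name or drawn. Lists of markers of 12 cell types were summed. The alternatives were other filters, pseudocounts, scalings, a robust prior and the compared groups alone. Others were a block by replicate number, library runs, reads recovered from the FPKM values (limma voom) and each library left out. A trend with GC content was corrected by lowess, and pairs of libraries were left out, both chosen after seeing the data.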

Additional observations from a re-analysis of the deposited data

How the results depend on the processing

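The 9 members kept their direction in MI against control under each of the 34 alternative settings (33 for C3ar1 and C5ar1, which fall under the filter at a mean of 5 FPKM), and 33 of 304 single calls lost the threshold. With each library left out in turn, 5 to 9 members were called higher in MI than in control (5 without MI 5). Of the other complement genes 11 to 17 were called higher and 0 to 1 lower (1 without MI 6). The share of all genes called higher ran from 18.4% (without MI 5) to 46.5% (without HXP 3). The count of members fell to 0 within the largest run, to 0 without MI 4 and MI 5 and to 5 without control 3 and control 6. The count of other complement genes higher in MI was 7 with the filter at 5 FPKM (12 tested), 11 under quantile normalization, 11 with the run as a covariate, 0 within the run, 0 without MI 4 and MI 5 and 10 without control 3 and control 6, and 3 were lower under quantile normalization as under median-ratio scaling. In HXP against control, leaving out single libraries gave 0 to 7 members and 0 to 13 other complement genes called higher. The upper value came without HXP 6 in both (28.1% of all genes). Without HXP 5 and HXP 6 the counts were 9 and 15 (40.9% of all genes). Quantile normalization gave 4 other complement genes there (3.93% of all genes) and median-ratio scaling 3 (3.82% of all genes). The cause was not tested for any of these, apart from fewer genes or libraries where the setting removes them.

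In HXP against MI the sign turned without HXP 5 and HXP 6 for C1ra (0.084), C3 (0.12), Cfp (0.087) and C3ar1 (0.088), and for C3 within the run (0.016), none with a call. Ratios near 0 changed sign when single libraries were left out: C5ar1 to macrophage markers in MI against control ranged from -0.086 to 0.097, C1q to macrophage markers from -0.043 to 0.057, Cfp to macrophage markers in HXP against MI from -0.11 to 0.12, C3ar1 to macrophage markers there from -0.19 to 0.019, and C1ra to C1s1 in HXP against control from -0.13 to 0.020. With the GC correction they were -0.00351 for C5ar1 and -0.086 for C1q in MI against control, and 0.14 for Cfp in HXP against MI.

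With the replicate number as a block, 9 of 9 members were called higher in MI (limma adjusted p 0.0092 to 0.0189), beside 37.9% of all genes. No member's call changed in the 3 comparisons. The correlation of same-numbered libraries, with group means removed, ran from -0.313 to 0.635. It was not compared with that of differently numbered libraries, so whether the numbers pair the libraries was not tested.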
